A study of Mus musculus with 12 samples.

Results

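The 43 genes described here are the Toll-like receptors, inflammasome components, signalling intermediates and NF-kappaB genes of the mouse liver. They were chosen by gene symbol from a fixed list, and all 43 were found among the 16035 genes of the deposited table. All 43 also passed the filter on low counts, which left 14725 genes. They fell into receptors and co-receptors (11), the adaptor, kinases and TRAF proteins (7), cytosolic sensors and inflammasome genes (7), cytokines and their receptors (6), NF-kappaB subunits (5), and inhibitors and feedback genes (7).

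Toll-like receptors bind microbial products and products of damaged cells, at the cell surface or in endosomes, and most signal through the adaptor Myd88, the Irak kinases and Traf6. The signal frees NF-kappaB dimers from their IkappaB inhibitors, and the dimers switch on cytokines together with genes that shut the pathway off again, such as Tnfaip3 and Nfkbia. Inflammasomes are cytosolic complexes of a sensor, the adaptor Pycard and caspase-1, and they mature interleukin-1 beta and interleukin-18. In liver, hepatocytes carry part of this machinery and Kupffer cells and recruited macrophages carry more of it.

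Livers came from wild-type C57BL/6 mice in a study of experimental nonalcoholic steatohepatitis. Mice were fed a diet that the labels call HFCF, without spelling out the name, or normal chow. The groups were HFCF for 1 month at 3 months of age, chow for 1 month at 3 months of age, HFCF for 3 months at 6 months of age and chow for 3 months at 6 months of age, with 3 biological replicates each. Feeding time and age thus moved together, and the labels used here give no sex and no pooling of animals.

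The 12 libraries of ribosomal-RNA-depleted liver RNA held 13733485 to 20277572 counts. Levels are given in CPM, which sets each gene's reads against the TMM-scaled library total, and changes are log2 fold changes ± SE with p-values from edgeR's quasi-likelihood test, adjusted by Benjamini-Hochberg over all 14725 genes; a gene rose or fell where this adjusted p was under 0.05. A first principal component holding 42.7% of the variance placed replicates 1, 2 and 3 of HFCF at 3 months at 60.7, 63.8 and 29.3, so replicate 3 stood apart from its group, and the second component set the first replicate of the 1-month chow group off from its partners. Hepatocyte markers summed to 66749 to 124515 CPM over the libraries, and no marker listed in the table was at 0 in all libraries.

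To show the regulatory sequence in front of these genes, the 250 bases before each RefSeq start (GRCm38.p6) were searched on both strands for the NF-kappaB consensus known as the kappaB motif. Of the 43 genes 35 had such a window, and 11 of these (31.4%) held a match, while 8.23% of 27025 mouse genes with a window did. The share was 4 of 11 (36.4%) among genes that rose on HFCF at 3 months and 7 of 24 (29.2%) among the others. A match is a stretch of letters and not a measured binding site. The 43 genes include targets of NF-kappaB such as Tnfaip3 and Nfkbia, so the share over all genes is no test of the list. The windows of 6 genes are printed 5′ to 3′ on the gene's strand with matches in capitals, overlapping matches joined. Tlr2, Casp4, Tnfaip3 and Nfkb2 rose at 3 months, Tnip1 rose over time on HFCF, and Nfkbia, the classic target with a match, did not pass the threshold in any comparison.
Tlr2: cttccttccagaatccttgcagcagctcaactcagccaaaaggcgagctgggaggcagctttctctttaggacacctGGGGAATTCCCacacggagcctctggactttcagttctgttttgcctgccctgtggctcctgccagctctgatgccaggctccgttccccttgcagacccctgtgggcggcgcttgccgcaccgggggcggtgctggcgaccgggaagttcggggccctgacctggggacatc
Casp4: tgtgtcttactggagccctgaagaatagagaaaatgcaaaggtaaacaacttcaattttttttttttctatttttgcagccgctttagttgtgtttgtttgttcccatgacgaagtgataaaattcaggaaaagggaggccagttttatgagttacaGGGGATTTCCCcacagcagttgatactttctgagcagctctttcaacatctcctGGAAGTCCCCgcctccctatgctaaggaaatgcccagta
Tnfaip3: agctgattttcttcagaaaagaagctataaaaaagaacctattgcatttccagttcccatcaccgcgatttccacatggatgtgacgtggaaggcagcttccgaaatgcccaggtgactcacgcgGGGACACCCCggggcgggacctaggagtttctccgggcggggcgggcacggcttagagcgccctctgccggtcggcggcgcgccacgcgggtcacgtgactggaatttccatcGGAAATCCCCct
Nfkb2: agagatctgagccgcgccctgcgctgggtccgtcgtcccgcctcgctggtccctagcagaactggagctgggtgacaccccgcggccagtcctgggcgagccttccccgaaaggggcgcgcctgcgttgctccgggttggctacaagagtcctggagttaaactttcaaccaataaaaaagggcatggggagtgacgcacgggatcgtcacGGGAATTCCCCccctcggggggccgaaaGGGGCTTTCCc
Tnip1: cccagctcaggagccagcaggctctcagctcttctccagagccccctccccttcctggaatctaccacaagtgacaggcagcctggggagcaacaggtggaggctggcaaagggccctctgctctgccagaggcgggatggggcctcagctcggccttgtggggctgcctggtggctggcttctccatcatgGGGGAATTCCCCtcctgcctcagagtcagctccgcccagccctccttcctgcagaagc
Nfkbia: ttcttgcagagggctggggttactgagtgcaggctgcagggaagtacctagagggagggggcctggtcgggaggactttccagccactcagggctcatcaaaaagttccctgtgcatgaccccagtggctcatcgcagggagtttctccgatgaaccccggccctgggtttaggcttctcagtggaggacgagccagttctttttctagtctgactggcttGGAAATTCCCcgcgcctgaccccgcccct
The windows lie at chr3:83841609-83841858 (minus strand) for Tlr2, chr9:5308599-5308848 (plus) for Casp4, chr10:19015411-19015660 (minus) for Tnfaip3, chr19:46304487-46304736 (plus) for Nfkb2, chr11:54962941-54963190 (minus) for Tnip1 and chr12:55492648-55492897 (minus) for Nfkbia. Tlr2 had its match 173 bases before the start. Casp4, Tnfaip3 and Nfkb2 each had a pair of matches. The nearer one lay 39 bases before the start in Casp4, 12 in Tnfaip3 and 11 in Nfkb2. The deposited gene model of Tnfaip3 begins at base 19015657, upstream of the RefSeq start, so its matches fall inside that model. Those of Tlr2 and Casp4 also begin upstream of the RefSeq start, at bases 83841767 and 5308828, but their matches lie before the model.

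**Figure D1:**
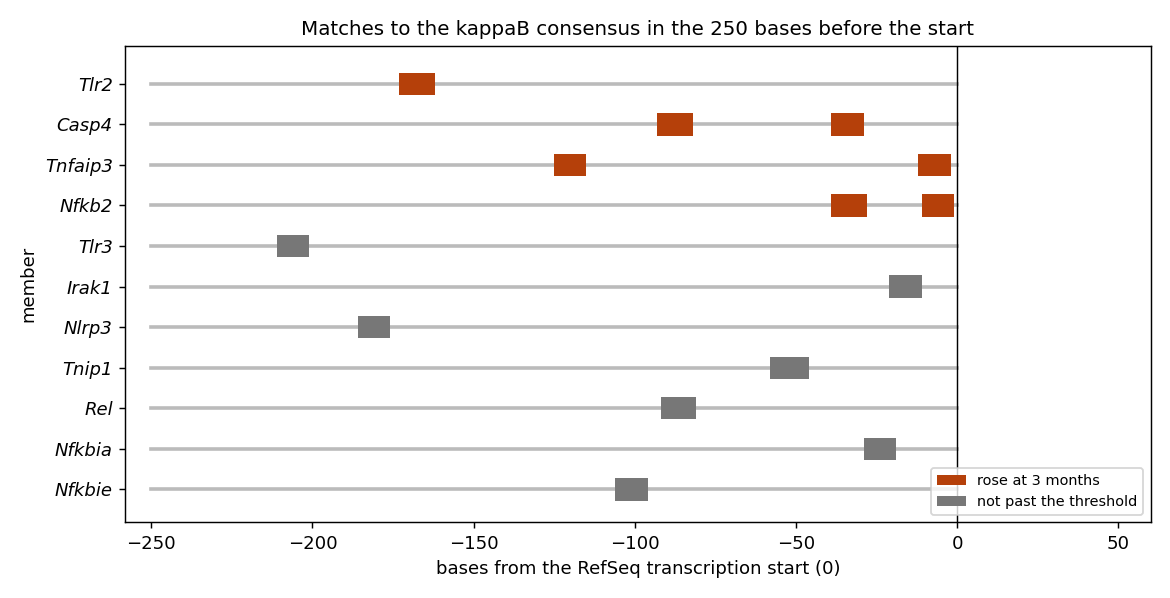
Position of kappaB consensus matches in the 250 bases before the RefSeq transcription start (x axis, bases from the start at 0) for the 11 genes with a match (y axis). Red boxes mark the 4 genes that rose on HFCF at 3 months and grey boxes the 7 that did not pass the threshold; matches begin up to 173 bases before the start in the red set and up to 211 bases before it in the grey set.

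After 3 months of HFCF feeding 14 of the 43 genes rose against chow and 0 fell. Over all genes tested 11.5% rose and 7.5% fell in the same comparison. The 14 were Tlr1, Tlr2, Tlr5, Tlr8, Cd14, Ly96, Traf1, Casp1, Casp4, Il1rn, Tnf, Tnfaip3, Nfkb2 and Relb. The median log2 fold change of the 43 genes was 0.63, against -0.0042 for all genes, and 40 of 43 had a value above 0, against 49.5% of all genes. In 16 of the 43 every HFCF library lay above every chow library, against 19.3% of all genes, and in 0 every HFCF library lay below, against 17.5%. At an unadjusted p under 0.05 there were 24 genes, against 33.4% of all genes in either direction. By role, the genes that rose were 6 of 11 receptors, 1 of 7 adaptors and kinases, 2 of 7 sensors, 2 of 6 cytokine genes, 2 of 5 NF-kappaB subunits and 1 of 7 inhibitors.

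Of the 14 genes all but Ly96 were lowest in replicate 3 of HFCF within that group. The median of the 43 genes, as log2(CPM + 0.5) less the mean of chow in the same month, was 0.67, 0.56 and 0.18 in replicates 1, 2 and 3 of HFCF at 3 months, against 0.13, -0.04 and -0.10 in chow at 3 months. At 1 month it was 0.12, -0.02 and 0.05 in HFCF livers and 0.04, 0.05 and -0.08 in chow livers. The HFCF libraries at 3 months lay above all chow libraries of that month, and the 1-month groups overlapped.

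Markers of immune cells moved with the genes. Of 10 markers of recruited or lipid-associated macrophages 9 rose at 3 months, and their summed level was 396, 410 and 96.9 CPM in HFCF livers against 42.4 to 56.5 CPM in chow livers. The resident Kupffer cell list held Clec4f, Vsig4, Timd4, Cd5l, Marco, Adgre1, Csf1r, C1qa, C1qb and C1qc. Of these 10 markers 5 rose, and 8 of the 10 had a log2 fold change above 0. Their sums were 663 to 930 CPM in HFCF livers and 386 to 556 CPM in chow livers. Pan-leukocyte and phagocyte markers rose in 5 of 6, at 181 to 346 CPM in HFCF livers against 84.3 to 118 CPM in chow livers, and the dendritic cell list rose in 4 of 6, at 108 to 120 CPM in HFCF livers against 49.8 to 67.5 CPM in chow livers. Of 8 neutrophil markers 4 were in the table and 2 could be tested; both, S100a8 and S100a9, rose, and the list summed to 2.48 to 3.79 CPM in HFCF livers and 0.654 to 1.89 CPM in chow livers. For each list from macrophages to neutrophils the sums of all 3 HFCF libraries lay above those of all 3 chow libraries. The remaining non-parenchymal lists were less uniform, with overlapping sums for the B cell, T and NK cell and stellate cell lists and separate sums for the endothelial and cholangiocyte lists. B cell markers rose in 2 of 4 tested, at 4.0 to 8.0 CPM in HFCF livers and 2.32 to 4.58 CPM in chow livers. None of 2 T and NK cell markers tested passed (2.14 to 3.18 CPM in HFCF livers and 1.77 to 2.80 CPM in chow livers), nor did any of 6 sinusoidal endothelial markers (397 to 407 CPM in HFCF livers and 377 to 391 CPM in chow livers). Stellate cell markers rose in 2 of 6, at 511 to 750.2 CPM in HFCF livers and 391 to 541 CPM in chow livers. Cholangiocyte markers rose in 1 of 5, which was Spp1, also on the macrophage list, at 60.7 to 222 CPM in HFCF livers and 31.3 to 44.0 CPM in chow livers. Hepatocyte markers fell in 5 of 8, with sums of 66749 to 83301 CPM in HFCF livers against 100336 to 107353 CPM in chow livers. The part of these cell types in the results below was not tested, and in whole-liver RNA a change in the number of cells of a type and a change in RNA per cell cannot be told apart.

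**Figure D2:**
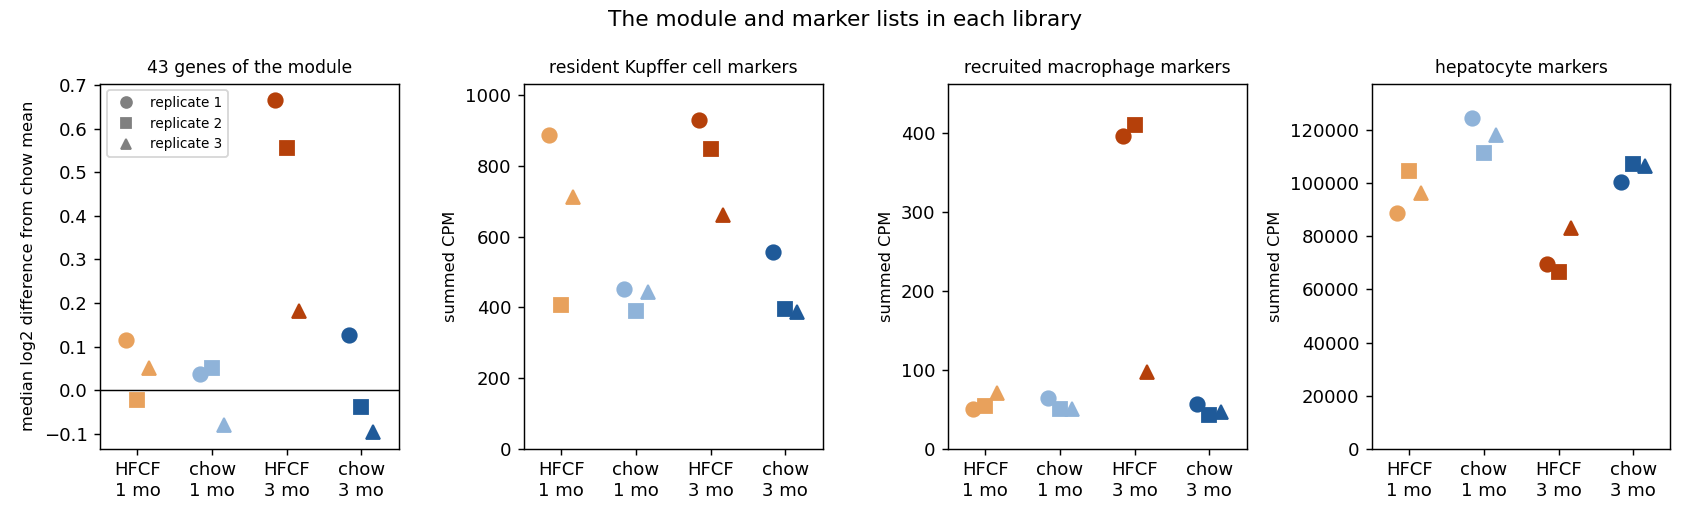
Each point is 1 library, with HFCF left of chow at each month and symbols for replicates. The first panel gives the median log2 difference of the 43 genes from the chow mean of the month, and the others the summed CPM of Kupffer cell, recruited macrophage and hepatocyte markers; replicate 3 of HFCF at 3 months, at 0.18 in the first panel, is nearer to chow than its 2 partners in all 4 panels.

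Leaving out 1 library moved the count of genes that rose at 3 months. It was 7 without replicate 2 of chow, 9 without replicate 3 of chow, 8 without replicate 1 of HFCF and 9 without replicate 2 of HFCF, while it was 19 without replicate 3 of HFCF. The 7 genes Tlr2, Traf1, Il1rn, Tnf, Tnfaip3, Nfkb2 and Relb passed in each of the 6 fits that left out a library of these 2 groups.

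Tlr2 (ENSMUSG00000027995, chr3:83836273-83841767 in mm10), the cell-surface receptor for bacterial lipoproteins, had the smallest adjusted p of the receptors. It was at 9.36, 9.86 and 6.07 CPM in HFCF livers at 3 months and 3.83, 2.81 and 2.25 CPM in chow livers. All 3 HFCF libraries lay above the 3 chow libraries, a log2 fold change of 1.5 ± 0.25 with an edgeR adjusted p of 0.00161. At 1 month its levels of 2.80, 2.40 and 4.03 CPM in HFCF livers overlapped the 2.57, 3.05 and 2.41 CPM of chow livers.

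Tlr1 (ENSMUSG00000044827, chr5:64924811-64932761), which pairs with Tlr2 at the cell surface, was at 3.98, 5.11 and 1.24 CPM in HFCF livers and 1.62, 0.915 and 0.525 CPM in chow livers at 3 months. Replicate 3 of HFCF lay within the chow range, and the log2 fold change was 1.73 ± 0.50 (edgeR adjusted p = 0.0299). The call was lost without replicate 2 or 3 of chow or replicate 1 or 2 of HFCF, at adjusted p of 0.0904 to 0.133. Tlr6, the other partner of Tlr2, neighbours Tlr1 on chromosome 5, and reads of such close relatives could be split by the counting. It was at 1.03, 1.27 and 0.483 CPM in HFCF livers and 0.485, 0.327 and 0.300 CPM in chow livers, with a log2 fold change of 1.32 ± 0.47 that did not pass (edgeR adjusted p = 0.0653); without replicate 3 of HFCF it passed at 0.0205.

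Tlr5 (ENSMUSG00000079164, chr1:182954788-182976044), the flagellin receptor, was at 16.6, 14.4 and 11.9 CPM in HFCF livers and 6.90, 6.02 and 5.92 CPM in chow livers at 3 months. The groups were fully separate, with a log2 fold change of 1.18 ± 0.28 (edgeR adjusted p = 0.0129), though the call was lost without replicate 2 of chow (0.0595) or replicate 1 of HFCF (0.0544). By CPM it was the most abundant Toll-like receptor in HFCF livers at 3 months, but CPM is not scaled by gene length. Per length, in the authors' FPKM, Tlr5 also came first there among the 9 Toll-like receptors, at 4.48 ± 0.96 FPKM, ahead of Tlr2 at 3.11 ± 0.90 FPKM (SD, n = 3 each).

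The co-receptors of lipopolysaccharide sensing rose, and Tlr4 itself, the receptor they serve, did not pass. A difference between these genes was not tested. Cd14 (ENSMUSG00000051439, chr18:36725074-36726736), which hands lipopolysaccharide to the receptor, was at 7.95, 8.55 and 4.0 CPM in HFCF livers and 3.5, 2.88 and 2.02 CPM in chow livers. Its 3 HFCF libraries lay above chow, at a log2 fold change of 1.28 ± 0.32 (edgeR adjusted p = 0.0154). Ly96 (ENSMUSG00000025779, chr1:16688456-16709605), also called MD-2, was at 2.71, 2.92 and 3.59 CPM in HFCF livers and 1.99, 1.83 and 1.95 CPM in chow livers. It was the only gene of the 14 with its highest HFCF level in replicate 3, and its log2 fold change was 0.66 ± 0.19 (edgeR adjusted p = 0.0282). Tlr4 was at 11.7, 9.86 and 10.2 CPM in HFCF livers and 8.68, 6.67 and 5.92 CPM in chow livers, without overlap. Its log2 fold change was 0.57 ± 0.22 (edgeR adjusted p = 0.089). Tlr4 passed only with a replicate block (edgeR adjusted p = 0.0207) and with total library size (0.047). The call on Cd14 was lost without replicate 2 or 3 of chow or replicate 1 or 2 of HFCF (0.0590 to 0.0737), and that on Ly96 without any 1 library of the 6 except replicate 1 of HFCF (0.0585 to 0.104).

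Among the endosomal receptors of nucleic acids, Tlr8 (ENSMUSG00000040522, chrX:167242694-167264329), a receptor of single-stranded RNA in humans, was at 7.95, 7.20 and 3.93 CPM in HFCF livers and 4.15, 2.75 and 2.70 CPM in chow livers. The groups overlapped through replicate 3 of HFCF, and the log2 fold change was 0.99 ± 0.31 (edgeR adjusted p = 0.0401). That call was lost without replicate 2 or 3 of chow or replicate 1 or 2 of HFCF, at 0.127 to 0.149. Its neighbour on the X chromosome, Tlr7, another receptor of single-stranded RNA, had a log2 fold change of 0.74 ± 0.28 (edgeR adjusted p = 0.0865), and it passed without replicate 3 of HFCF (0.0121). Tlr9, for unmethylated CpG DNA, had 0.90 ± 0.52 (0.241), at 0.483 to 1.31 CPM in HFCF livers and 0.300 to 0.647 CPM in chow livers. Tlr3, for double-stranded RNA, had 0.18 ± 0.21 (0.568).

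**Figure D3:**
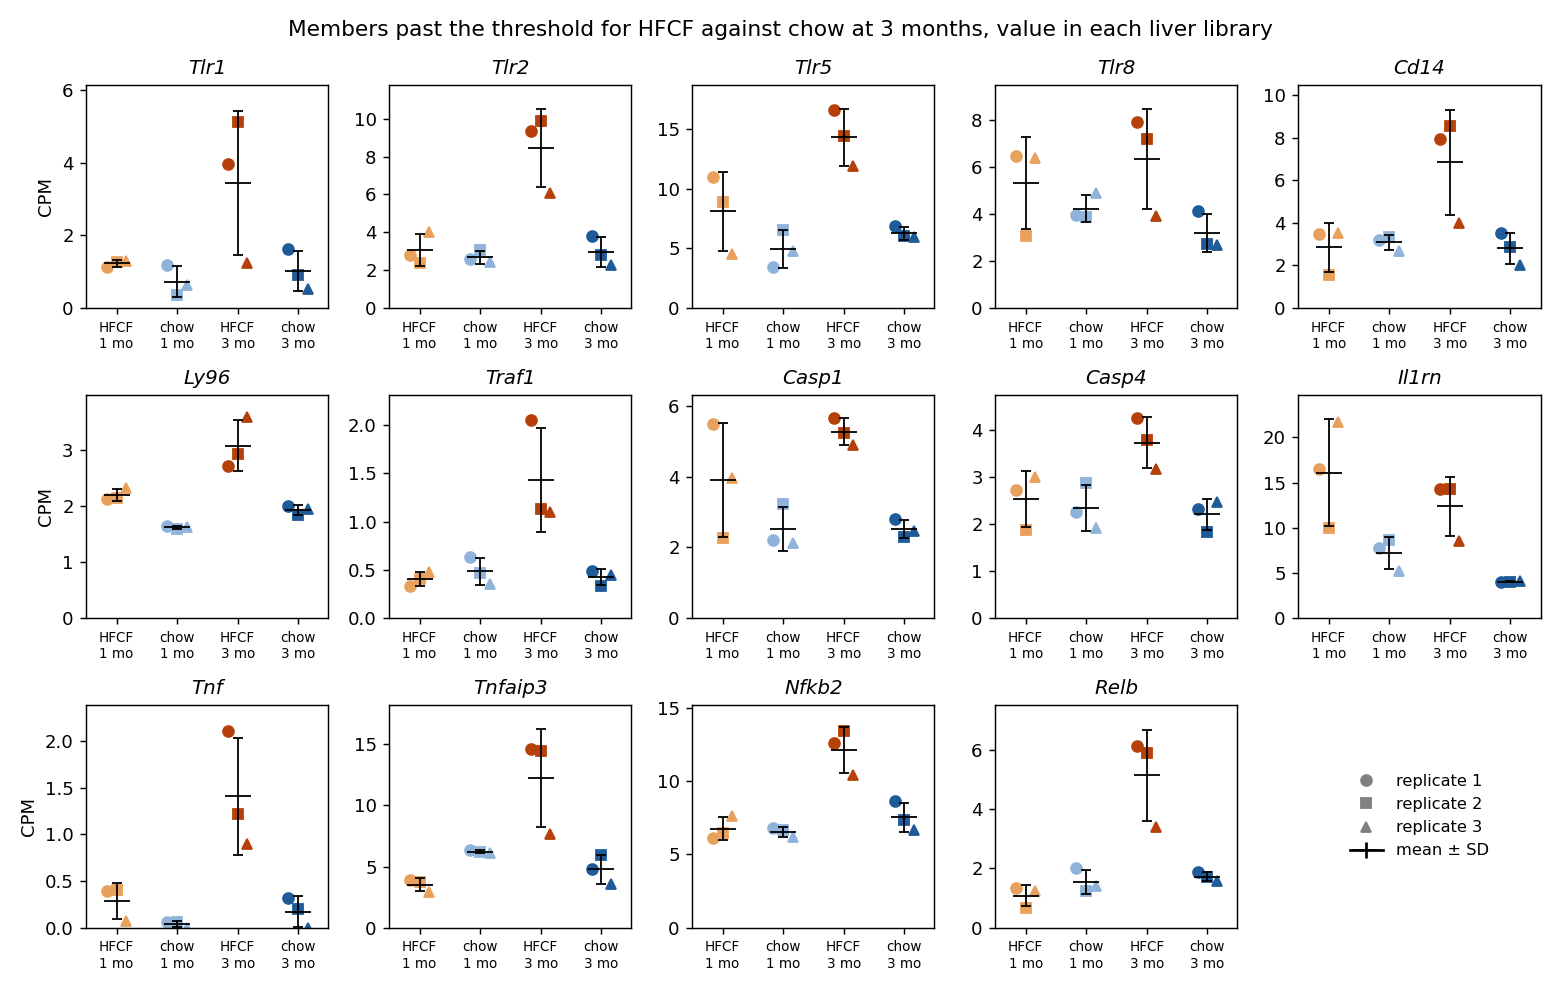
CPM (y axis, from 0, 1 panel per gene) of the 14 genes that rose on HFCF at 3 months in each library, with HFCF left of chow at each month (x axis). Points are replicates and bars the mean ± SD of 3; at 3 months the HFCF points lie above all chow points in every panel except Tlr1 and Tlr8, where replicate 3 reaches into the chow range.

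Of the 7 genes between receptor and nucleus 1 rose. Myd88, the adaptor of most Toll-like receptors, was at 16.8, 14.8 and 15.2 CPM in HFCF livers and 14.1, 15.4 and 16.8 CPM in chow livers at 3 months, and the groups overlapped. Its log2 fold change was 0.02 ± 0.12 (edgeR adjusted p = 0.919). Irak1, Irak2, Irak3 and Irak4, the kinases behind Myd88 (Irak3 acts as a brake), had log2 fold changes of 0.08 to 0.28 that did not pass, and Traf6, the ubiquitin ligase they engage, had -0.19 ± 0.11. Myd88 overlaps Acaa1a on the other strand and Slc22a14 on its own, Irak3 overlaps Tmbim4 and Irak4 overlaps Twf1, so their counts are less certain.

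Traf1 (ENSMUSG00000026875, chr2:34941750-34961772), a TRAF protein that binds TNF-family receptors and is itself an NF-kappaB target, was the exception in this group. It was at 2.06, 1.13 and 1.10 CPM in HFCF livers and 0.485, 0.327 and 0.450 CPM in chow livers at 3 months. Every HFCF library was above every chow library, at a log2 fold change of 1.76 ± 0.37 (edgeR adjusted p = 0.00581).

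In the sensor and inflammasome group both inflammatory caspases rose. Casp1 (ENSMUSG00000025888, chr9:5298517-5307265), which cleaves the interleukin-1 beta precursor, was at 5.66, 5.24 and 4.90 CPM in HFCF livers and 2.80, 2.29 and 2.47 CPM in chow livers at 3 months. The groups did not overlap, and the log2 fold change was 1.06 ± 0.27 (edgeR adjusted p = 0.0151). Casp4 (ENSMUSG00000033538, chr9:5308828-5336783), the mouse caspase-11 that binds lipopolysaccharide in the cytosol, was at 4.26, 3.80 and 3.17 CPM in HFCF livers and 2.32, 1.83 and 2.47 CPM in chow livers. It was separate from chow as well, at 0.77 ± 0.23 (edgeR adjusted p = 0.034). The 2 genes are neighbours and close relatives, so reads could be shared between them. The call on Casp1 was lost without replicate 2 of chow (0.0678) or replicate 1 of HFCF (0.0556), and that on Casp4 without any 1 library of the 6 except replicate 3 of HFCF (0.0600 to 0.140).

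The inflammasome sensor Nlrp3 was at 2.81, 2.18 and 2.28 CPM in HFCF livers and 1.83, 0.981 and 1.12 CPM in chow livers, without overlap, with a log2 fold change of 0.86 ± 0.30 that did not pass (edgeR adjusted p = 0.0617); without replicate 1 of chow it passed at 0.0304. Pycard, the adaptor that joins sensor and caspase, was at 3.04, 2.71 and 1.45 CPM in HFCF livers and 1.56, 1.31 and 0.750 CPM in chow livers, at 0.98 ± 0.35 (0.0634), and it passed without replicate 3 of HFCF at 0.015. The peptidoglycan sensors Nod1 and Nod2 had 0.30 ± 0.12 (0.0978) and 0.79 ± 0.46 and did not pass, though Nod1 did without replicate 1 of chow at 0.049. Gsdmd, the pore-forming substrate of both caspases, was at 29.5, 26.1 and 27.3 CPM in HFCF livers and 32.4, 27.7 and 21.9 CPM in chow livers, and its log2 fold change was 0.01 ± 0.13.

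Among the cytokine genes Tnf (ENSMUSG00000024401, chr17:35199381-35202007), the archetypal inflammatory cytokine, had the highest log2 fold change of the 43 and very few reads. It had 45, 28 and 13 counts in HFCF livers and 6, 3 and 0 counts in chow livers at 3 months, or 2.10, 1.22 and 0.897 CPM in HFCF livers and 0.323, 0.196 and 0 CPM in chow livers. The count of 0 in replicate 3 of chow allows a level of up to 0.225 CPM (3 counts of that library, counting error only). The 3 HFCF libraries lay above chow, with a log2 fold change of 2.88 ± 0.62 (edgeR adjusted p = 0.00688) that ran from 2.40 to 3.68 when single libraries were left out.

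Il1rn (ENSMUSG00000026981, chr2:24336853-24351494), the secreted antagonist of the interleukin-1 receptor, was at 14.3, 14.3 and 8.55 CPM in HFCF livers and 3.99, 3.99 and 4.12 CPM in chow livers at 3 months. The groups stood well apart, at a log2 fold change of 1.63 ± 0.29 (edgeR adjusted p = 0.00361). Il1b, the agonist, was at 5.94, 5.32 and 3.72 CPM in HFCF livers and 3.56, 2.09 and 0.825 CPM in chow livers. All 3 HFCF libraries lay above chow, but the chow libraries spread widely. The log2 fold change of 1.18 ± 0.51 did not pass (edgeR adjusted p = 0.129). Il1b passed only with a replicate block (edgeR adjusted p = 0.0166). Il1b overlaps Il1bos on the other strand. Il18, matured like Il1b by caspase-1, had 0.03 ± 0.20. The TNF receptor genes Tnfrsf1a and Tnfrsf1b had 0.14 ± 0.14 and 0.38 ± 0.14 (edgeR adjusted p = 0.0821 for the second), and Tnfrsf1b passed without replicate 3 of HFCF at 0.00558.

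Of the NF-kappaB subunits the pair of the non-canonical branch rose. Relb (ENSMUSG00000002983, chr7:19606217-19629438) was at 6.13, 5.89 and 3.38 CPM in HFCF livers and 1.89, 1.70 and 1.57 CPM in chow livers at 3 months. Its HFCF libraries all exceeded chow, at a log2 fold change of 1.58 ± 0.28 (edgeR adjusted p = 0.00251). Nfkb2 (ENSMUSG00000025225, chr19:46304737-46312090), which encodes the p100 precursor of the Relb partner p52, was at 12.6, 13.4 and 10.4 CPM in HFCF livers and 8.62, 7.32 and 6.67 CPM in chow livers. The groups did not overlap, at 0.69 ± 0.14 (edgeR adjusted p = 0.00558); Nfkb2 overlaps Psd on the other strand.

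The subunits of the canonical branch did not pass. Rela, the main activating subunit, was at 21.6, 20.3 and 16.3 CPM in HFCF livers and 19.2, 19.5 and 19.3 CPM in chow livers, a log2 fold change of 0.01 ± 0.11 (edgeR adjusted p = 0.973). Nfkb1, the source of p50, had 0.28 ± 0.11 (0.0938) and passed without replicate 3 of HFCF at 0.0205, and Rel, a subunit known from lymphoid cells, had 0.05 ± 0.31.

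Tnfaip3 (ENSMUSG00000019850, chr10:19000910-19015657), also called A20, a ubiquitin-editing enzyme that ends NF-kappaB signalling, was the inhibitor that rose at 3 months. It was at 14.6, 14.4 and 7.66 CPM in HFCF livers and 4.8, 5.95 and 3.60 CPM in chow livers. No HFCF library overlapped chow, and the log2 fold change was 1.36 ± 0.23 (edgeR adjusted p = 0.00201). Its binding partner Tnip1 was at 10.9, 11.2 and 5.52 CPM in HFCF livers and 6.41, 6.60 and 4.95 CPM in chow livers, at 0.63 ± 0.24 (0.0882), and it passed without replicate 3 of HFCF at 0.00483.

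The IkappaB genes did not pass at 3 months. Nfkbia, which encodes the main IkappaB, was at 50.9, 50.7 and 43.8 CPM in HFCF livers and 50.5, 49.6 and 51.4 CPM in chow livers, a log2 fold change of -0.06 ± 0.12 (edgeR adjusted p = 0.768). Nfkbib had -0.07 ± 0.18, and the directions of Nfkbia and Nfkbib turned with scaling by total library size, to 0.08 and 0.06. Nfkbie was at 0.42 ± 0.25 (0.27) and the nuclear Nfkbiz at 0.32 ± 0.18 (0.23). Birc3, an inhibitor of apoptosis and ubiquitin ligase of the TNF receptor complex, had 0.21 ± 0.19. Nfkbib overlaps Sirt2 and Ccer2 on the other strand.

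**Figure D4:**
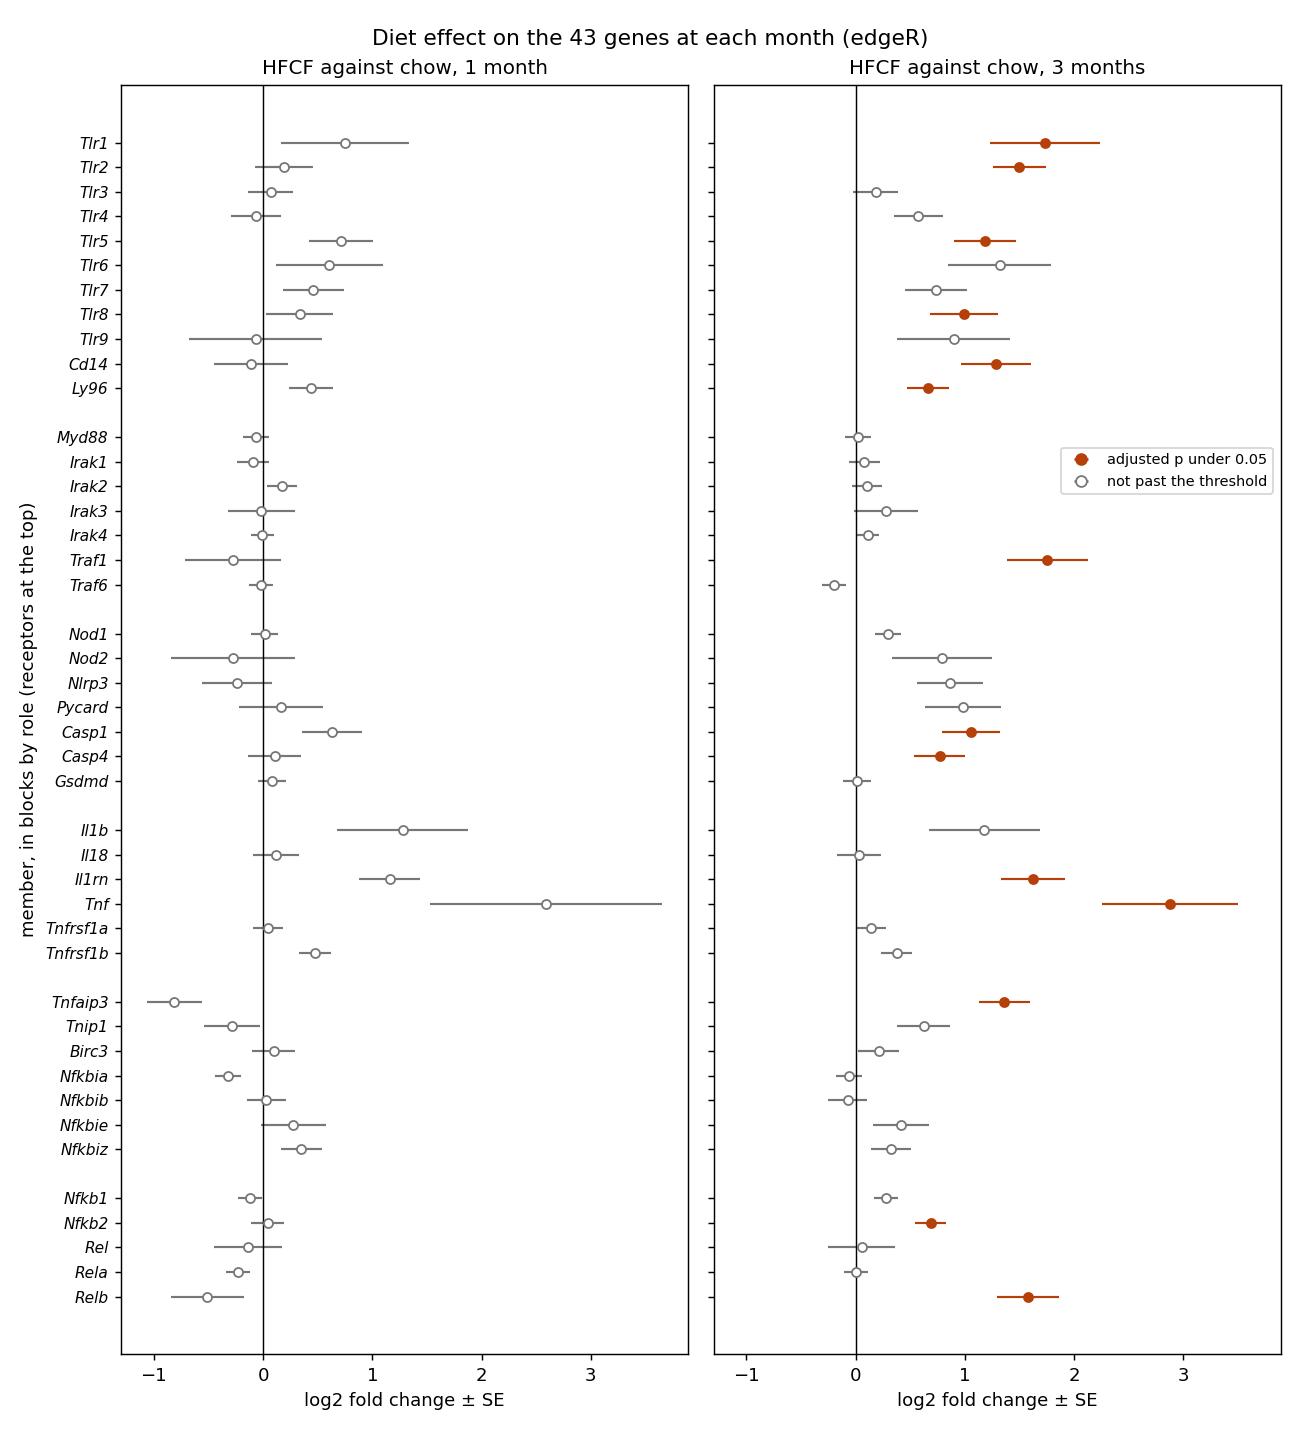
Log2 fold change ± SE (x axis) of each of the 43 genes (y axis, in blocks by role) for HFCF against chow at 1 month and at 3 months; filled red points have an edgeR adjusted p under 0.05. At 3 months 14 points are filled and 40 lie right of 0, and at 1 month none is filled.

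After 1 month of HFCF feeding 0 of the 43 genes passed the edgeR threshold in either direction, while 1.04% of all genes rose and 1.01% fell. The median log2 fold change of the 43 was 0.05, and 25 of 43 were above 0, against 49.2% of all genes. The libraries did not overlap for 4 higher and 3 lower genes, against 10.1% and 10.5% of all genes. At an unadjusted p under 0.05 there were 8 genes, against 16.3% of all genes; Tlr5, Ly96, Casp1, Il1rn, Tnf and Tnfrsf1b were higher and Tnfaip3 and Nfkbia lower. The DESeq2 Wald test called 1 gene, Il1rn, of the 38 that had an adjusted p.

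Il1rn was at 16.6, 10.02 and 21.8 CPM in HFCF livers and 7.72, 8.63 and 5.17 CPM in chow livers at 1 month. The groups did not overlap, and the log2 fold change of 1.16 ± 0.28 missed the threshold (edgeR adjusted p = 0.0571); it passed without replicate 2 of HFCF at 0.0134. In the DESeq2 Wald test its adjusted p was 0.00251. Tnfaip3 was at 3.91, 3.74 and 2.93 CPM in HFCF livers and 6.34, 6.22 and 6.09 CPM in chow livers. Each HFCF library was below each chow library, at a log2 fold change of -0.81 ± 0.25 that did not pass (edgeR adjusted p = 0.116).

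Nfkbia was also fully below chow at 1 month, at 34.8, 42.1 and 44.0 CPM in HFCF livers and 46.3, 45.2 and 59.8 CPM in chow livers, with -0.32 ± 0.12 (edgeR adjusted p = 0.188). Tnfrsf1b was fully above it, at 42.9, 50.02 and 50.9 CPM in HFCF livers and 34.6, 33.3 and 35.6 CPM in chow livers, with 0.48 ± 0.14 (0.109). Tlr5 had 0.72 ± 0.29 (0.25) and passed without replicate 3 of HFCF at 0.0445. Tnf had 7, 6 and 1 counts in HFCF livers and 1, 1 and 0 counts in chow livers, too few for a dependable fold change.

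Marker lists of several cell types also stood apart by diet at 1 month, although 1 marker in all passed, Bst2 of the dendritic cell list, at 0.82 ± 0.15 (edgeR adjusted p = 0.0146). The dendritic cell list summed to 70.4 to 107 CPM in HFCF livers and 49.1 to 53.7 CPM in chow livers, without overlap. Only 3 of its 6 markers had a log2 fold change above 0, so the list did not move as a whole. Neutrophil sums (1.94 to 2.57 CPM in HFCF livers and 0.816 to 1.63 CPM in chow livers) and B cell sums (5.32 to 5.88 CPM in HFCF livers and 2.64 to 4.32 CPM in chow livers) also lay apart. Hepatocyte markers lay fully below chow, at 88825 to 104777 CPM in HFCF livers and 111559 to 124515 CPM in chow livers. The other lists overlapped between the diets. Among them, Kupffer cell markers summed to 405 to 888 CPM in HFCF livers and 388 to 451 CPM in chow livers, with 9 of 10 above 0, and pan-leukocyte markers to 96.3 to 155 CPM in HFCF livers and 81.9 to 99.2 CPM in chow livers, with 6 of 6 above 0. Recruited macrophage markers summed to 49.99 to 70.0 CPM in HFCF livers and 50.1 to 63.7 CPM in chow livers, with 8 of 10 above 0. The part of these cell types in the values at 1 month was not tested.

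The test of the difference between the diet effects, 3 months minus 1 month, called 1 of the 43 genes, Tnfaip3, while 0.0204% of all genes were called higher in that test. Tnfaip3 differed by 2.17 ± 0.34 on the log2 scale (edgeR adjusted p = 0.0464), with a diet effect above 0 at 3 months and one below 0 at 1 month that did not itself pass. The call was lost in 10 of the 12 fits that left out a library, at 0.068 to 0.148, and held without replicate 2 of HFCF at 1 month and without replicate 3 of HFCF at 3 months, with differences of 2.01 to 2.41 in all 12. It was also lost with total library size as the scaling (2.28 ± 0.38, edgeR adjusted p = 0.0564). Relb had 2.09 ± 0.44 and an edgeR adjusted p of 0.0909, and it passed without replicate 3 of HFCF at 3 months (0.0066) and in the DESeq2 Wald test (0.0067).

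At an unadjusted p under 0.05 the difference held 9 of the 43 genes, all with a higher diet effect at 3 months, against 15.6% of all genes in either direction. The difference was above 0 in 35 of 43, against 50.7% of all genes. These were Tlr2, Cd14, Traf1, Nlrp3, Tnfaip3, Tnip1, Nfkb1, Nfkb2 and Relb. Without replicate 3 of HFCF at 3 months 7 of the 43 were called, namely Tlr2, Cd14, Traf1, Tnfaip3, Tnip1, Nfkb2 and Relb. For Il1rn the difference was 0.47 ± 0.40 (edgeR adjusted p = 0.633), so a difference between its diet effects at the 2 months was not shown.

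Within HFCF-fed mice 9 of the 43 genes were higher after 3 months than after 1 month and 0 were lower, while 9.25% of all genes rose and 6.95% fell. Values above 0 were found in 37 of 43, against 52.2% of all genes, and 16 were higher and 0 lower without overlap, against 17.2% and 14.9%. The 9 called were Tlr2, Cd14, Traf1, Tnf, Tnfaip3, Tnip1, Nfkb2, Relb and Nfkbie. This comparison shares its 3-month HFCF libraries with the diet comparison above, and feeding time cannot be told apart from age. Relb was at 6.13, 5.89 and 3.38 CPM in HFCF livers at 3 months and 1.34, 0.668 and 1.23 CPM in HFCF livers at 1 month, a log2 fold change of 2.24 ± 0.30 (edgeR adjusted p = 0.000907). Tnfaip3, at 7.66 to 14.6 CPM at 3 months and 2.93 to 3.91 CPM at 1 month, had 1.80 ± 0.24 (edgeR adjusted p = 0.000907). Neither gene's groups overlapped.

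A pair of genes passed over time on HFCF that had not passed against chow. Tnip1 was at 10.9, 11.2 and 5.52 CPM at 3 months and 4.31, 4.47 and 6.62 CPM at 1 month, with overlap through replicate 3 of both groups, and its log2 fold change was 0.86 ± 0.25 (edgeR adjusted p = 0.0308). Nfkbie, an IkappaB, was at 4.26, 4.54 and 2.90 CPM at 3 months and 2.18, 1.14 and 2.05 CPM at 1 month, without overlap, at 1.13 ± 0.27 (edgeR adjusted p = 0.0136). The rise of Tlr2 was 1.47 ± 0.24 (0.00256), of Nfkb2 0.85 ± 0.14 (0.00267), of Traf1 1.83 ± 0.37 (0.007), of Tnf 2.26 ± 0.58 (0.0193) and of Cd14 1.27 ± 0.32 (0.0198). The value for Tnf rests on only 7, 6 and 1 counts in HFCF livers at 1 month, so its size is uncertain.

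Over time on HFCF 6 of the 43 genes had a value below 0, namely Il1rn, Tnfrsf1a, Tnfrsf1b, Traf6, Tlr7 and Nfkbib. Il1rn was at 8.55 to 14.3 CPM at 3 months and 10.02 to 21.8 CPM at 1 month. Tnfrsf1b was at 28.9 to 46.7 CPM at 3 months and 42.9 to 50.9 CPM at 1 month. An unadjusted p under 0.05 was found for 23 genes, 22 of them higher, against 32.2% of all genes in either direction. Leaving out replicate 1 or 2 of HFCF at 3 months left 5 genes called over time, without Cd14, Tnf, Tnip1 and Nfkbie, at adjusted p of 0.0521 to 0.137 for these 4. Tnf was also lost without replicate 3 of HFCF at 1 month (0.0734) and Tnip1 without replicate 1 (0.102) or 2 (0.089) of that group. Without replicate 3 of HFCF at 3 months 15 genes were called. Among the marker lists, recruited macrophage markers rose in 9 of 10 over time on HFCF, pan-leukocyte markers in 3 of 6, dendritic cell markers in 3 of 6, stellate cell markers in 2 of 6 and cholangiocyte markers in 2 of 5. Hepatocyte markers fell in 5 of 8. Of the Kupffer cell (10), neutrophil (2), B cell (4), T and NK cell (2) and sinusoidal endothelial (6) markers tested, 0 passed. Their part in these values was not tested.

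In chow-fed mice 0 of the 43 genes passed between 3 months and 1 month in either direction with edgeR. In the DESeq2 Wald test 0 passed of the 34 that had an adjusted p. With edgeR 1 gene of all 14725 passed, or 0.00679%, and it was lower. The change was above 0 in 23 of 43, against 51.1% of all genes, and 3 were higher and 3 lower without overlap, against 7.88% and 7.67%. At an unadjusted p under 0.05 there were 3 of the 43, against 8.08% of all genes. Il1rn was lower, at 3.99, 3.99 and 4.12 CPM at 3 months and 7.72, 8.63 and 5.17 CPM at 1 month, a log2 fold change of -0.84 ± 0.30 (edgeR adjusted p = 0.519). Nfkbie was higher, at 2.80, 3.40 and 2.62 CPM at 3 months and 1.76, 1.53 and 1.13 CPM at 1 month, with 0.99 ± 0.28 (0.409), and Nfkbiz was higher at 0.42 ± 0.19 (0.609).

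Per gene length, in the authors' FPKM, Nfkbia was the most abundant of the 43 genes in all 4 groups, at 33.9 ± 4.6 in HFCF and 32.2 ± 0.7 in chow livers at 3 months and 24.5 ± 2.8 in HFCF and 30.0 ± 4.9 in chow livers at 1 month (SD, n = 3 each). Tnfrsf1a came next and Gsdmd after it in every group, at 19.3 ± 3.2 and 17.2 ± 1.6 FPKM in HFCF livers at 3 months, and this pair did not differ beyond its spread there. The last places in chow livers of both months and in HFCF livers at 1 month went to Nod2, Traf1, Tlr9, Tnf and Tlr6, in an order that changed between groups. In HFCF livers at 3 months Nod2, Tlr9, Traf1 and Tlr6 still came last, at 0.169 to 0.397 FPKM, while Tnf stood higher, at rank 37 with 0.958 ± 0.463 FPKM. In chow livers at 3 months these 5 lay between 0.0832 and 0.144 FPKM, and most neighbours among them did not differ beyond their spread. None of the 3 most abundant genes rose at 3 months.

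**Figure D5:**
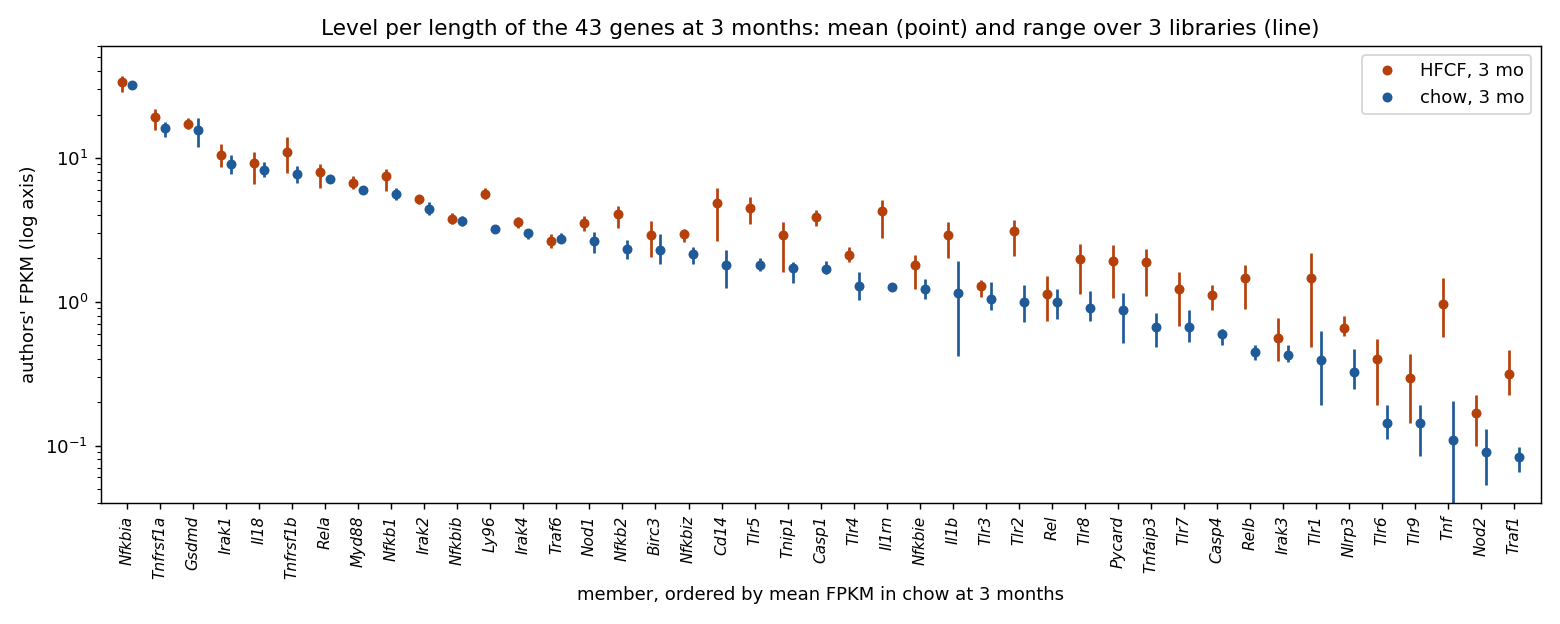
The authors' FPKM (y axis, log scale) of the 43 genes at 3 months, ordered by the mean in chow livers (x axis); points are means and lines the range over 3 libraries, HFCF left of chow. Nfkbia leads at 33.9 FPKM in HFCF and 32.2 FPKM in chow livers; the chow line of Tnf runs off the axis because replicate 3 is at 0.

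Beyond the 43, a list of 63 further genes of the pathway was drawn up, of which 60 were in the table and 57 were tested. At 3 months 14 of 57 rose and 6 fell, where 11.5% of all genes rose and 7.5% fell, with a median log2 fold change of 0.14. By sublist, 4 of 11 genes of receptors, adaptors and trafficking rose and 2 fell, 7 of 16 of the inflammasome and IL-1 family rose and 1 fell, 2 of 6 nuclear genes rose and 1 fell, and 1 of 24 kinases, ubiquitin ligases and deubiquitinases rose and 2 fell. Tlr13, a receptor of bacterial ribosomal RNA in mice, rose by 1.75 ± 0.31 (edgeR adjusted p = 0.00265), and Ly86, the partner of the Tlr4 homologue Cd180, by 1.62 ± 0.29 (0.00244). The transcription factors Irf8 and Irf7, of myeloid cells and the interferon response, rose by 1.24 ± 0.22 (0.00244) and 1.03 ± 0.21 (0.00734), and Naip2, a mouse sensor of bacterial secretion system proteins, by 0.70 ± 0.16 (0.0109).

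Map3k14, the kinase that triggers Nfkb2 processing, rose by 0.69 ± 0.22 (edgeR adjusted p = 0.0443). The other genes that rose were Unc93b1, Tlr12, Aim2, Casp8, Gsdme, Il1a, Il18bp and Il33, with log2 fold changes of 0.38 to 1.39. The 6 that fell were Ikbkg at -0.52 ± 0.11 (0.00544), Nlrp12 at -1.15 ± 0.26 (0.0113), Irf3 at -0.31 ± 0.09 (0.0229), Lbp at -0.58 ± 0.16 (0.0248), Ticam1 at -0.53 ± 0.16 (0.0361) and Cyld at -0.26 ± 0.09 (0.046). Ikbkg is the regulatory subunit of the IkappaB kinase, Lbp is the hepatocyte-made lipopolysaccharide-binding protein of plasma, and Ticam1 is the adaptor of Tlr3 and Tlr4. At 1 month 1 of the 57 rose, Casp8 at 0.56 ± 0.10 (0.0176), and 1 fell, Tab2 at -0.48 ± 0.11 (0.0337), where 1.04% of all genes rose and 1.01% fell, so these counts are near those over all genes. Over time on HFCF 10 of 57 rose and 1, Nlrp12, fell, where 9.25% of all genes rose and 6.95% fell, and in the difference of the diet effects and in chow over time 0 of 57 passed.

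The authors' deposited table, whose ratios run chow over HFCF, called 13 of the 43 genes higher in HFCF at 3 months, 1 at 1 month and 11 higher over time on HFCF, and 0 over time in chow. The 13 were those called here except Ly96, for which the authors' deposited table gives an adjusted p of 0.0619. The 1 gene at 1 month was Il1rn, at an adjusted p of 0.00243 in the authors' deposited table. The 11 over time were the 9 called here together with Tlr1 and Tlr5, again from the authors' deposited table.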

How the data were processed

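Total liver RNA was extracted, depleted of ribosomal RNA with Ribo-Zero Gold and made into stranded TruSeq libraries, per the labels' protocols. The deposited table holds raw read counts per gene, made on genome build mm10 per the submitters' processing notes. Aligner, counter and counted strand were not given in the sources used here. FPKM values were made by the authors from these counts and the gene model's bases, and were used only to compare levels between genes. The authors' deposited log2 ratios are shrunken and run first-named over second-named group, here chow over HFCF and 1 month over 3 months. The authors' deposited score is the negative log10 of an adjusted p times 10, and was turned back into p. 1 of 16036 lines was empty, and 15306 of 16035 identifiers matched GENCODE release M21. Starts in the table count from 0, and 1 was added.

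Counts were filtered with filterByExpr, which removed 1310 genes, scaled by TMM (factors 0.921 to 1.14) and fitted with edgeR 4.0.16 in R 4.3.3, with robust quasi-likelihood and 4 group means over 12 libraries in 1 fit. The common biological coefficient of variation was 0.153. The SE is the absolute log2 fold change over the root of the F statistic. An adjusted p under 0.05 was the threshold. The comparisons share libraries, so their calls are not independent. Counts at this depth leave genes such as Tnf with few reads. Alternatives were DESeq2 1.42.0 size factors and Wald test, total library size, no filter, a replicate block, leaving out each library, and leaving out both libraries that stood apart. The fit was tested on simulated data. Libraries of the same group differed by more than sampling noise (chi-square per gene of 12.1 to 59.9). None was therefore a copy or second sequencing of another library. A second library made from the same RNA would not be seen this way. Promoters came from RefSeq (GRCm38.p6), where 8 of the 43 genes had no window. The consensus has 10 bases, in this order GGG, a purine, 2 of any base, 2 pyrimidines and CC.

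All 43 genes were to be accounted for, with levels per library for those past the threshold in a comparison, and further pathway genes were named for the smallest p. The 43 genes, the further pathway genes and the markers were chosen with earlier results of these data known, and no p is adjusted over a list alone. Genes whose values are given beside a left-out library were chosen after their values were seen.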

Additional observations from a re-analysis of the deposited data

Results flagged for a closer look

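The diet effect on Tnfaip3 differed between the months by 2.17 ± 0.34 on the log2 scale (edgeR's test of the difference itself, adjusted p = 0.0464 over all genes), and this is the result a reader may want to look at again. Against chow, Tnfaip3 was higher in all 3 HFCF livers at 3 months, at 1.36 ± 0.23, and lower in all 3 HFCF livers at 1 month, at -0.81 ± 0.25, which did not pass on its own (adjusted p = 0.116). The adjusted p of the difference ran from 0.000692 to 0.148 over the fits that left out 1 library, and was 0.0564 with total library size as the scaling, where 0 of all genes passed. Its cause was not tested, and feeding time, age and age at the start of feeding cannot be told apart.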

How the results depend on the processing

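The 14 genes higher on HFCF at 3 months numbered 14 under DESeq2 size factors and without the filter, 13 in the DESeq2 Wald test (Ly96 at an adjusted p of 0.0709), 18 with a replicate block, 21 with total library size and 19 without both libraries that stood apart, and 7 to 19 when 1 library was left out. All genes called were 3910 without both libraries and 1255 to 3631 with 1 left out, against 2802. Total library size put the median log2 fold change of all genes at 0.13 at 3 months, against -0.0042. The same median was 0.22 over time on HFCF (against 0.02) and 0.11 in the difference of the effects (against 0.0052). With that scaling 81.4% of the calls at 3 months were higher, against 60.6%. The part of this shift in the counts under total library size was not tested. At 1 month all genes called were 622 in the Wald test and 149 without both libraries, against 301. With 1 library left out they were 65 to 289. Of the 43 genes 1, 0 and 0 to 1 were called in these settings. In the Wald test 38 of the 43 had an adjusted p at 1 month. For the difference of the effects all genes called were 0 with total library size, 336 in the Wald test, 48 with the replicate block, 635 without both libraries and 0 to 878 with 1 left out, against 6, and of the 43 they were 0, 2, 1, 4 and 0 to 7, against 1. Over time on HFCF they were 3907 with total library size, 3808 without both libraries and 732 to 3562 with 1 left out, against 2385, and of the 43 they were 23, 14 and 5 to 15, against 9. Over time in chow they were 68 in the Wald test, 2 under the other scalings, without the filter and without both libraries, and 1 to 6 with 1 left out, against 1, with 0 of the 43 in each edgeR fit and 0 of the 34 with an adjusted p in the Wald test. The causes of these moves were not tested. No pairing of the samples by replicate number was seen, though with 3 libraries a group a weak pairing could be missed. Deviations of same-numbered libraries correlated at -0.17 to 0.19 (18 pairs) and those of other numbers at -0.25 to 0.24 (36 pairs), and 5 of 12 libraries correlated best with their own number. The replicate block gave 18 of the 43 at 3 months, 0 at 1 month, 13 over time on HFCF and 0 in chow. Directions turned at 3 months for genes near 0 that never passed. Without both libraries Il18 was at -0.0948 and Nfkbia at 0.0047, and with total library size Nfkbia was at 0.0766 and Nfkbib at 0.0605. With 1 library left out Myd88 ran from -0.0438 to 0.0838, Irak1 from -0.0419 to 0.17, Gsdmd from -0.12 to 0.15, Il18 from -0.0943 to 0.25, Rel from -0.18 to 0.25, Rela from -0.0694 to 0.11 and Nfkbia from -0.0926 to 0.0045. With 3 libraries a group and Tnf, Nod2, Tlr6, Tlr9 and Traf1 near or below 1 CPM, small changes in these genes were not detectable at this depth.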
